A study of Mus musculus with 8 samples.

Results

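The genes described here are 40 cell cycle genes: cyclins, cyclin-dependent kinases and their inhibitors, pocket proteins, E2F factors, p53 and its antagonist Mdm2, and regulators or markers of mitosis. They were measured in cultured vascular smooth muscle cells (VSMCs) of the mouse, the cells that contract the artery wall and that leave their resting state and divide when an artery is injured. The primary VSMCs came from the descending aorta of C57BL/6J mice and were transduced in culture with lentivirus carrying a short hairpin RNA, either a control with no mouse target (shCTR) or 1 directed at Mettl14 (shMettl14), and no other treatment or genotype separated the groups. Mettl14 is the subunit that, with the catalytic subunit Mettl3, forms the core of the complex that writes N6-methyladenosine (m6A) into mRNA. Total RNA was fragmented, fragments were pulled down with an antibody against m6A (IP), and both the pulled-down and the starting RNA (input) were sequenced in replicates lettered A and B for either hairpin, 8 samples in all. The 4 IP samples each have a list of called m6A peaks, and each peak has a summit, the base with the most overlapping IP fragments. A cell cycle gene was counted as carrying m6A where a summit fell in one of its annotated exons, and 13 of the 40 genes met this, of 55450 annotated genes in all. They held 27 and 27 summits in the shCTR lists and 34 and 27 in the shMettl14 lists. Where 4 values follow each other below, they are those of replicates A and B of shCTR and then of shMettl14.

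Cyclins bind and activate cyclin-dependent kinases (CDKs), which phosphorylate the pocket proteins (Rb1, Rbl1 and Rbl2) and so release E2F transcription factors to switch on the genes of DNA synthesis. The INK4 and Cip/Kip proteins inhibit the kinases, and p53 induces several of the brakes, while Mdm2 marks p53 for degradation. m6A is read by proteins that shorten or change the life of the marked mRNA, and in most tissues it lies near stop codons and in long internal exons. Writers methylate the A of the sequence DRACH, which is A, G or T, then A or G, then A, then C, then A, C or T.

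The lists held 9710 and 7726 exonic summits in the shCTR lists and 12067 and 8296 in the shMettl14 lists, with a median of 13 to 16 IP fragments at a summit, so a single value rested on few fragments. The lists hold calls, not transcript levels, so a transcript without a call may have been too scarce to be called, and fewer cells with a transcript and less RNA per cell cannot be told apart. Mettl14 itself had no exonic summit in any list, and its knockdown was not checked with these values. Of 8 smooth muscle markers 4 had a summit, with Cald1 and Lmod1 in all 4 lists and Acta2, Tagln and Cnn1 in none. Of 7 endothelial markers 4 had a summit, with Pecam1, Cdh5 and Erg in all 4 lists, against 0 of 6 fibroblast and 1 of 6 macrophage markers. The part of other cell types in the results on cell cycle genes was not tested.

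The sequences at the strongest regions are shown first, and those of Mdm2 and Plk2, where the median summit fell between sites, follow with those sites. Each is 21 nt of mm10, read 5′ to 3′ on the strand of the gene, around the DRACH nearest to the median summit of the region, and the capitals mark that DRACH.
Ccnd2 3′UTR (chr6:127129889-127129909, minus strand): gggtgccaGGACCgcatgagt
Cdkn2b 3′UTR (chr4:89306658-89306678, minus strand): tcccctgtGAACTgaaaatgc
Cdkn2c 5′UTR (chr4:109666237-109666257, minus strand): acttccaaAGACCcttcccat
Rbl2 3′UTR (chr8:91122624-91122644, plus strand): ggacaagaGGACCaggagttt
E2f1 coding end (chr2:154560715-154560735, minus strand): gatctcttTGACTgtgacttt
E2f3 coding end (chr13:29909954-29909974, minus strand): ggcatcagTGACCtcttcgat
E2f6 3′UTR (chr12:16825700-16825720, plus strand): tatcacaaAGACTagcataag
Cdc25a 3′UTR (chr9:109892434-109892454, plus strand): ccaaagctGGACAagcacagc
Of these 8 sequences 3 have GGAC, the form of the motif that the writer complex methylates most readily, and the rest have AGAC, GAAC or TGAC. The E2f6 and Cdc25a motifs lie between the summits of the 2 lists that called each gene.

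Which cell cycle transcripts carried m6A was the first question the lists could answer. Ccnd2, Cdkn2b, Cdkn2c, Rbl2, E2f3, Mdm2, Mki67 and Plk2 had an exonic summit in all 4 lists, 8 of 40 genes or 20%, beside 16.0% of all 21951 protein-coding genes. E2f1 had one in 3 lists, E2f6, Cdc25a and Rb1 in 2, and E2f8 in 1, which made 32.5% of the cell cycle genes with a summit in any list, beside 25.3% of protein-coding genes. The shCTR lists had summits in 10 and 11 of the cell cycle genes and the shMettl14 lists in 12 and 9. The shMettl14 counts and the 32.5% include Rb1, whose region is shared with Lpar6 and was in all 4 lists. In a wider list of 108 other genes, 46 had a summit in any list and 31 in all 4. That list takes in cyclins and CDKs by name, such as Ccnt1 and Cdk9, with other genes linked to the cell cycle.

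The 27 genes without an exonic summit in any list included 10 of the 11 cyclins and all 4 CDKs. They were Ccnd1, Ccnd3, Ccne1, Ccne2, Ccna2, Ccnb1, Ccnb2, Ccnf, Ccng1 and Ccng2 among the cyclins and Cdk1, Cdk2, Cdk4 and Cdk6 among the kinases. Among the brakes they were Cdkn1a, Cdkn1b and Cdkn1c, the Cip/Kip family, with the INK4 gene Cdkn2a, the pocket protein Rbl1 and Trp53, which encodes p53. They also included E2f2, E2f4, E2f5 and E2f7, and Wee1, Cdc25b and Plk1, which time the entry into mitosis. The chosen transcripts of these 27 genes had a median length of 2810 nt, against 3632 nt for the 13 genes with a summit. Protein-coding genes without a summit likewise had shorter transcripts, with a median of 2216 nt against 3818 nt.

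Strength was compared as a percentile, the position of a summit's fold enrichment of IP over local background among all summits of its own list, because the lists rest on different backgrounds and differ in number of summits. Fragment numbers at a summit are the IP fragments recovered from the deposited values. They grow with the abundance of the transcript as well as with its methylation.

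Among the D cyclins, which couple growth factor signals to Cdk4 and Cdk6, only Ccnd2 was called. Its region (chr6:127129516-127130101) lies in the 3′UTR part of the last exon, which is 5326 nt long. The summit at the GGACC printed above lay 439 nt past the stop codon in both shCTR lists, 461 nt past it in shMettl14 A and 459 nt in shMettl14 B. It held 95, 74, 73 and 68 fragments, and the 95 in shCTR A were the most of any cell cycle summit. The local background was also high, at 12.8, 10.5, 10.5 and 6.82 fragments, and the percentiles were 38.8, 31.0, 36.6 and 57.4. The Ccnd2 site thus combined many fragments with a middling fold enrichment, and the percentiles of the groups overlapped. Both shCTR lists had more fragments than either shMettl14 list, which held at 39.3% of all sites found in all 4 lists. A weaker site 691 to 772 nt past the stop codon was also in all 4 lists, at percentiles from 2.48 to 7.94.

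**Figure D1:**
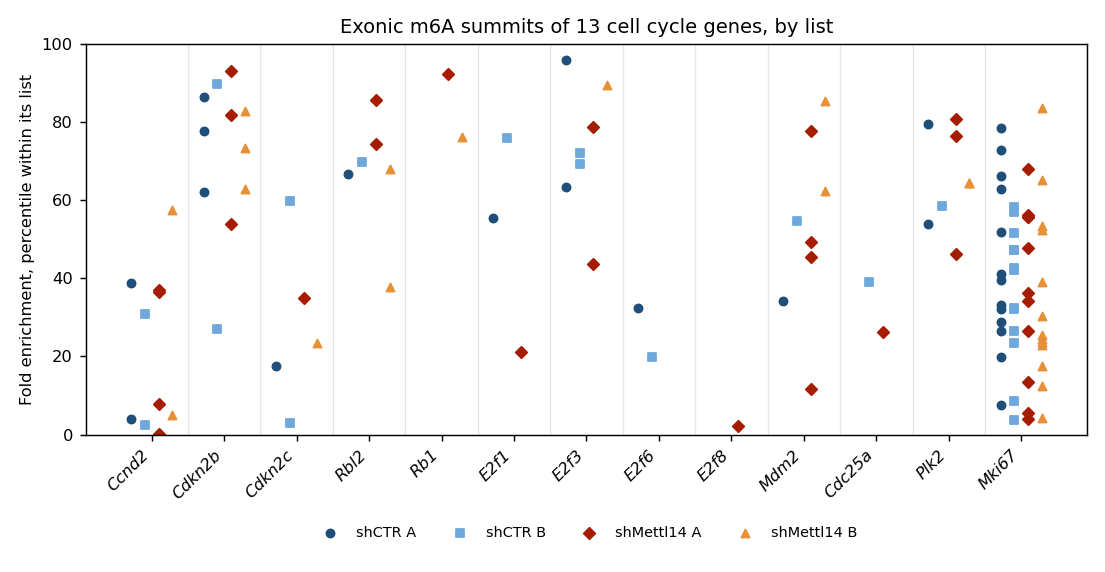
Percentile of the fold enrichment of every exonic summit within its own list (vertical axis) for the 13 cell cycle genes with a summit (horizontal axis), with one symbol and colour for each of the 4 lists. Cdkn2b and E2f3 have summits high in every list, the Ccnd2 summits lie at 57.4 or lower, and Mki67 has 11 to 13 summits in each list.

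The INK4 inhibitors block Cdk4 and Cdk6, and 2 of the 3 listed genes were called. Cdkn2b had its strongest sites in the 3′UTR (chr4:89306408-89307174), and its strongest summit of each list lay at percentiles 86.3, 89.9, 93.2 and 82.8. The site 347 to 379 nt past the stop codon held 57 and 55 fragments in the shCTR lists and 43 and 44 in the shMettl14 lists. A second site, 7 to 64 nt past the stop codon, held 39 and 31 fragments in the shCTR lists and 23 and 22 in the shMettl14 lists, and its nearest DRACH is the GGACT below. A further site, 533 to 573 nt past the stop codon, held 42, 24 and 22 fragments in shCTR A and the shMettl14 lists and had no summit in shCTR B. It gave the strongest summit in shCTR A, so the strongest summits of Cdkn2b were not all at the same place. The GAACT printed above, nearest to their median, lies 388 nt past the stop codon. The DRACH nearest to the median summit of the 347 to 379 nt site is a TGACA 351 nt past the stop codon.
Cdkn2b stop codon site (chr4:89307015-89307035, minus strand): ttccgcaaGGACTtctttctc
Fragments at the Cdkn2b sites in all 4 lists were fewer in the shMettl14 lists and did not overlap between the groups, whereas the percentiles overlapped. With summits of the 4 lists joined into sites within 100 bp, fragments were lower in this way at 8 of the 19 cell cycle sites found in all 4 lists, beside 39.3% of all 5547 such sites, so the Cdkn2b sites did not stand apart. Fragments were higher in both shMettl14 lists at 1 of the 19 sites, beside 2.02% of all such sites. The median summit of a whole list held 16 fragments in both shCTR lists and 14 and 13 in the shMettl14 lists, and the part of depth in this difference was not tested. Cdkn2c differed in position, because its summits lay in the 5′UTR (chr4:109666126-109666601), within the first exon of 1580 nt. It was the only one of the 13 genes called in a 5′UTR. Its summit held 9, 14, 12 and 7 fragments, at percentiles 17.4, 59.8, 35.0 and 23.3. The 2 shCTR percentiles bracketed both shMettl14 percentiles.

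The pocket proteins hold E2F factors inactive until CDKs phosphorylate them. Rbl2, which encodes p130, the member prominent in resting cells, had a 3′UTR region (chr8:91122382-91122820) with the strongest summit 108 to 215 nt past the stop codon. It held 18, 20, 18 and 13 fragments at percentiles 66.7, 69.8, 85.8 and 68.1, so the groups overlapped. The summits assigned to Rb1 could not be read as Rb1 methylation. They lay in a region (chr14:73239282-73239718) that also covers Lpar6, a receptor gene nested in an intron of Rb1 on the opposite strand, and the lists give no strand. The region was in all 4 lists, at percentiles 90.3, 78.8, 92.3 and 76.3. The summit fell inside an annotated alternative Rb1 exon in the shMettl14 lists only, so the presence of Rb1 in those lists alone came from the place of the summit in a region that all lists shared.

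E2F1 and E2F3 activate S-phase genes, and E2F6 and E2F8 repress transcription. The region at the end of the E2f3 coding sequence (chr13:29909769-29910165) was in all 4 lists, with summits 25, 54, 42 and 55 nt upstream of the stop codon. It held 22, 12, 13 and 17 fragments over a background of 0.206 to 0.301, which gave percentiles of 95.9, 72.0, 78.8 and 89.4. Few fragments over nearly no background thus ranked E2f3 above Ccnd2, and both groups had a high and a lower value. The E2f1 region (chr2:154560603-154560856) had its shCTR summits at almost the same place, 51 and 52 nt upstream of the stop codon, with 14 and 22 fragments at percentiles 55.6 and 76.0. In shMettl14 A the E2f1 summit lay 41 nt past the stop codon with 7 fragments at percentile 21.1, and shMettl14 B had none. The stretch of coding sequence just before the stop codon of activating E2Fs encodes the segment that binds pocket proteins.

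E2f6 was the one cell cycle gene with a region in both shCTR lists and neither shMettl14 list, beside 1.62% of all 9070 exonic regions. Its 3′UTR region (chr12:16825616-16825908) had 14 and 9 fragments in the shCTR lists, at percentiles 32.5 and 19.8. No cell cycle region was in both shMettl14 lists and neither shCTR list, beside 1.60% of all exonic regions. A second E2f3 region, in the 3′UTR (chr13:29909177-29909388), was called with 11, 16 and 9 fragments in shCTR A, shCTR B and shMettl14 A and not in shMettl14 B. With only the 8655 summits of lowest p-value kept in each list, the E2f1 and E2f6 regions and this second E2f3 region were in both shCTR lists and neither shMettl14 list, 3 of 18 cell cycle regions beside 3.68% of exonic regions under that rule. With a −log10 q of at least 5 the 1 such region was E2f1, beside 2.48% of exonic regions, and E2f6 was no longer in both shCTR lists. The summits of these 3 regions held 7 to 22 fragments, and the median summit of shMettl14 B had 13 fragments against 16 in both shCTR lists. The part of depth in these missing calls was not tested. E2f8 had 1 summit, in shMettl14 A, with 3 fragments.

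**Figure D2:**
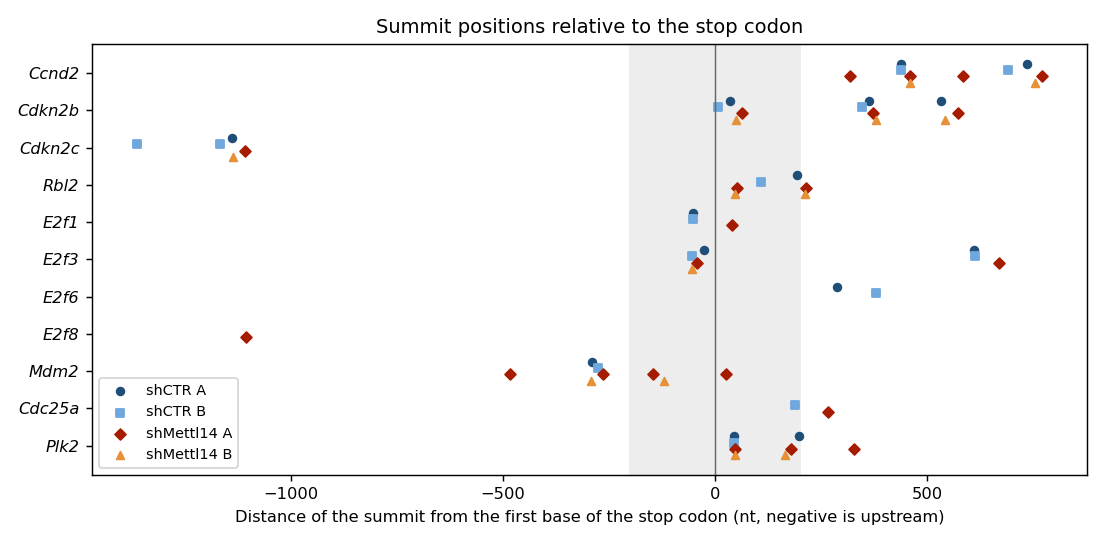
Distance in nt of each summit from the first base of the stop codon (horizontal axis, negative is upstream, the shaded band marks 200 nt to either side) for 11 genes, without Mki67 and Rb1. Most summits lie in the last exon on either side of the stop codon, those of Cdkn2c and E2f8 lie 1106 nt or more upstream, and Mdm2 has summits 121 and 146 nt upstream in the shMettl14 lists only.

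Mdm2, the ubiquitin ligase that holds p53 down, had the largest difference of percentiles between the groups among the 8 genes called in all 4 lists. Its region (chr10:117690099-117690740) covers the end of the coding sequence in the last exon. The strongest summit had a fold enrichment of 6.64 and 8.47 in the shCTR lists and 10.6 and 13.6 in the shMettl14 lists, at percentiles 34.2, 54.7, 77.8 and 85.4. Both shMettl14 values were above both shCTR values, which held for 17.8% of all 3690 genes tested. The higher ratio did not come with more fragments: they numbered 69 and 63 in the shCTR lists and 43 and 42 in the shMettl14 lists, over backgrounds of 9.54 and 6.56 against 3.16 and 2.17.

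The Mdm2 summits compared were at different places. One site, 265 to 293 nt upstream of the stop codon, was in all 4 lists with 69, 63, 53 and 47 fragments. The backgrounds there were 9.54, 6.56, 6.31 and 4.13, and the percentiles of 34.2, 54.7, 49.4 and 62.3 overlapped. Another, 146 nt upstream in shMettl14 A and 121 nt upstream in shMettl14 B, had a summit in the shMettl14 lists only, and it was the strongest there. It was the 1 cell cycle site of 40 in both shMettl14 lists and neither shCTR list, beside 3.84% of all 14180 exonic sites. The reverse held for 1 site, in E2f6, beside 1.87% of all sites. The interval called in both shCTR lists spanned this site too, with a single summit. The shortest interval of a list was 97 and 112 bp in the shMettl14 lists and 141 and 170 bp in the shCTR lists, where the peak caller MACS2 by default drops intervals shorter than its fragment length. The part of this difference in the added summit was not tested. The nearest DRACH to either site is shown here. The A of the first lies 322 nt upstream of the stop codon, 39 nt from the median summit of its site. That of the second lies 111 nt upstream, 22 nt from its median summit.
Mdm2 site in all 4 lists (chr10:117690524-117690544, minus strand): agaaggccGAACAgacgcccc
Mdm2 site in the shMettl14 lists (chr10:117690313-117690333, minus strand): tcacggcaAGACTggacacct

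Plk2, a Polo-like kinase of the G1 phase that p53 induces, had a narrowly placed site in the 3′UTR (chr13:110400120-110400687). The summit lay 45, 44, 47 and 46 nt past the stop codon in the 4 lists. It held 43, 38, 42 and 26 fragments at percentiles 53.9, 58.4, 76.5 and 64.5. Its GGACC lies 3 nt from the median summit.
Plk2 stop codon site (chr13:110400254-110400274, plus strand): tttcgagcGGACCtcatggga
At this Plk2 site both shMettl14 percentiles were above both shCTR percentiles, as at 3 of the 19 cell cycle sites in all 4 lists, beside 17.5% of all such sites. The strongest Plk2 summit of each list gave overlapping values of 79.6, 58.4, 80.8 and 64.5. In shCTR A and shMettl14 A that summit was at a second site, 198 and 179 nt past the stop codon. Cdc25a, the phosphatase that activates Cdk2 and Cdk1, was called in its 3′UTR in shCTR B with 8 fragments and in shMettl14 A with 7.

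Mki67, whose product Ki-67 coats mitotic chromosomes and marks dividing cells, held 50 of the 115 cell cycle summits, or 43.5%. All 50 lay in coding sequence, and the lists had 13, 13, 11 and 13 of them. Exon 12, which is 6836 nt long and makes up 71.7% of the coding sequence, held 12, 12, 10 and 12 of them, and exon 6 held 1 in every list. The summits of exon 12 fell into 15 sites, of which 8 were in all 4 lists. The highest Mki67 percentile was 78.4, 58.4, 68.0 and 83.7, and the summed fragments at its summits were 188, 185, 135 and 150. Fragments per summit had a median of 14, 15, 12 and 11, which was below the median of the whole list in each case.

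The exon encodes the tandem repeats of Ki-67, and the sequence was compared with itself at every shift of at least 100 and under 1000 nt. It matched itself best at a shift of 363 nt, at 39.5% of bases, against a median of 27.0% over all shifts. Spacing between neighbouring Mki67 sites ranged from 144 to 915 nt with a median of 347 nt, over all 15 sites of the exon, and no relation of the sites to the repeat was tested. The exon holds 258 DRACH motifs, many more than its sites. The motifs nearest to 3 of its sites in all 4 lists are shown, in the order 5445, 6953 and 8989 nt upstream of the stop codon, the last in exon 6.
Mki67 exon 12 (chr7:135699207-135699227, minus strand): accagtcaAAACCccggcaag
Mki67 exon 12 (chr7:135700715-135700735, minus strand): caggtgcaGGACAatgaaaac
Mki67 exon 6 (chr7:135708168-135708188, minus strand): ggcatgtaGAACAgcacactg

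**Figure D3:**
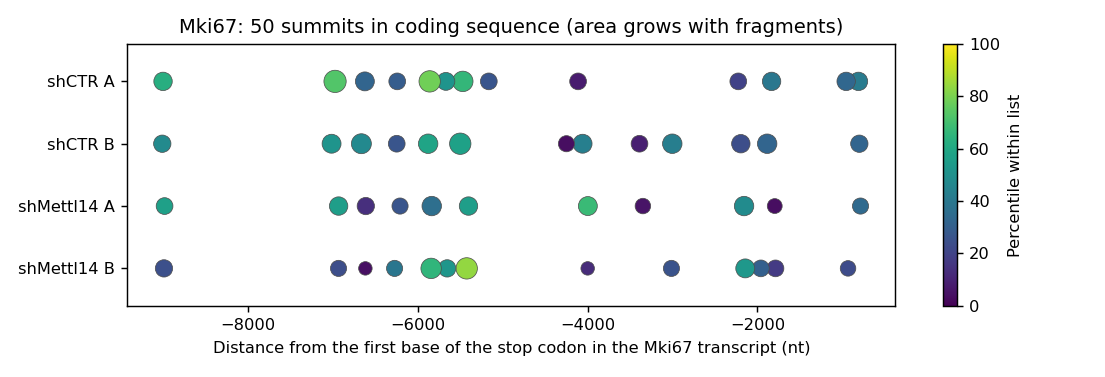
Position of the 50 Mki67 summits as distance in nt from the first base of the stop codon (horizontal axis) in the 4 lists (rows). Colour gives the percentile within the list and the area of a circle grows with the fragments at the summit, and 8 sites of the long exon and the single exon 6 site recur in all 4 lists.

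Among the 9 Mki67 sites in all 4 lists, the groups did not overlap in percentile at 3, in both directions. Cell cycle sites with both shMettl14 percentiles below both shCTR percentiles numbered 2 of 19, both in Mki67, beside 15.0% of all sites. The site at chr7:135695915-135695997 was higher in the shMettl14 lists, at 47.7 and 53.3 against 19.9 and 23.5 in the shCTR lists, with 16 and 15 against 11 and 14 fragments. The site at chr7:135695559-135695731 was lower, at 3.86 and 30.3 against 39.5 and 32.1. It was the widest cell cycle site in all 4 lists, at 172 bp from first to last summit. The merged region that holds both of these sites was higher in the shMettl14 lists, at 47.7 and 53.3 against 39.5 and 32.1. The site at chr7:135700382-135700434 stood at 32.2 and 47.2 in the shCTR lists and at 13.6 and 4.23 in the shMettl14 lists, with 15 and 17 against 12 and 6 fragments. In a fit over all 5547 sites found in all 4 lists, the difference of its rank was -1.07 ± 0.52 (SE, n = 2 lists a group) on the normal score scale, with an adjusted p of 0.928 by limma. Its unadjusted p of 0.0436 was the only one under 0.05 among the 19 cell cycle sites tested, beside 5.14% of all sites. The neighbouring site 333 nt upstream of it held 22, 15, 14 and 10 fragments, and its percentiles overlapped.

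Whether the knockdown moved the enrichment of a gene was tested over all 3690 genes with an exonic summit in all 4 lists. The rank of each gene's strongest summit was turned into a normal score, the value of a standard normal distribution at that rank, and compared between 2 lists a group with limma, with Benjamini-Hochberg adjustment. None of the 8 cell cycle genes passed an adjusted p of 0.05, beside 0% of all genes. The scores of 6 genes were higher and of 2 lower in the shMettl14 lists, with a median change of 0.15 beside -0.000219 over all genes, where 1844 were higher and 1846 lower. Ranks within a list cannot show a change shared by all genes, so the near balance over all genes is largely set by the ranking. Mdm2 had the largest difference of the 8, 1.15 ± 0.49 (SE, n = 2 lists a group), with an unadjusted p of 0.0314 and an adjusted p of 0.947 by limma, and it was the 1 cell cycle gene under an unadjusted 0.05, beside 5.09% of all genes. The other changes ran from -0.24 ± 0.52 for E2f3 to 0.36 ± 0.48 for Ccnd2, each smaller than its own standard error. The Cdkn2b value was 0.00186 ± 0.47. With fragments ranked in place of fold enrichment, 3 genes were higher and 5 lower and the Mdm2 value was -0.0691, and without shMettl14 B 4 were higher and 5 lower, E2f1 included.

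**Figure D4:**
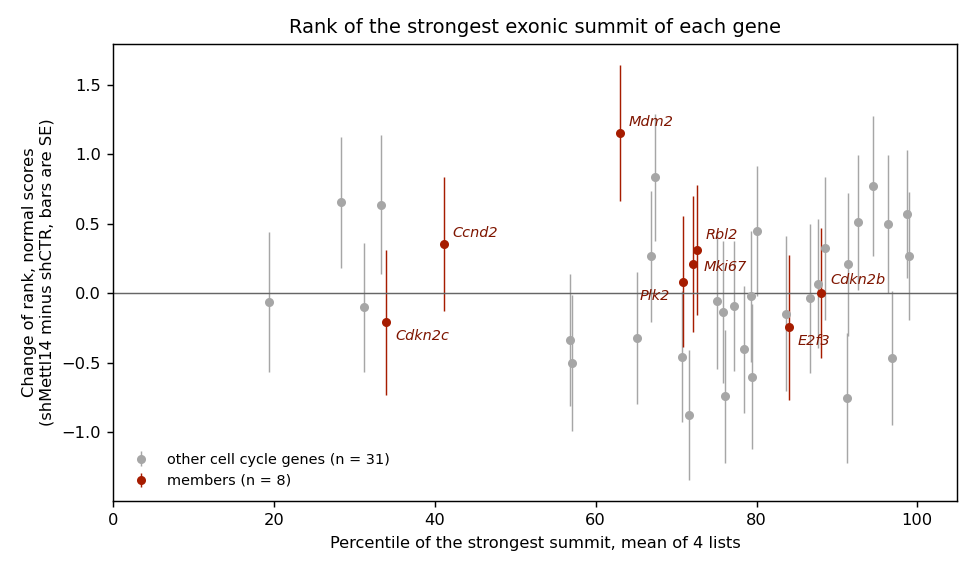
Change in the rank of the strongest exonic summit, in normal scores, shMettl14 minus shCTR (vertical axis, bars are 1 SE from limma), against the mean percentile of that summit over the 4 lists (horizontal axis). Red points are the 8 cell cycle genes described here and grey points the 31 genes of the wider list, and Mdm2 at 1.15 is the highest point.

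Merged over the lists where intervals overlapped, the calls gave 19 regions in cell cycle genes, of which 13 were in all 4 lists. The same test over 4929 such regions called none of the 13, beside 0% of all regions, and the Mdm2 region alone had an unadjusted p under 0.05 (0.0365, adjusted p = 0.970 by limma), beside 4.93% of all regions. In the wider list, 13 of the 31 genes tested were higher, 18 lower and none passed the adjusted threshold. Its smallest p-values belonged to Tpx2, a spindle assembly factor, with -0.87 ± 0.47 (SE), and in the other direction to Cdca2, with 0.83 ± 0.46 (adjusted p = 0.988 by limma for both). The strongest summits of the 8 cell cycle genes had a median of 71.5 for the mean percentile over lists, near the 72.7 of all genes tested.

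**Figure D5:**
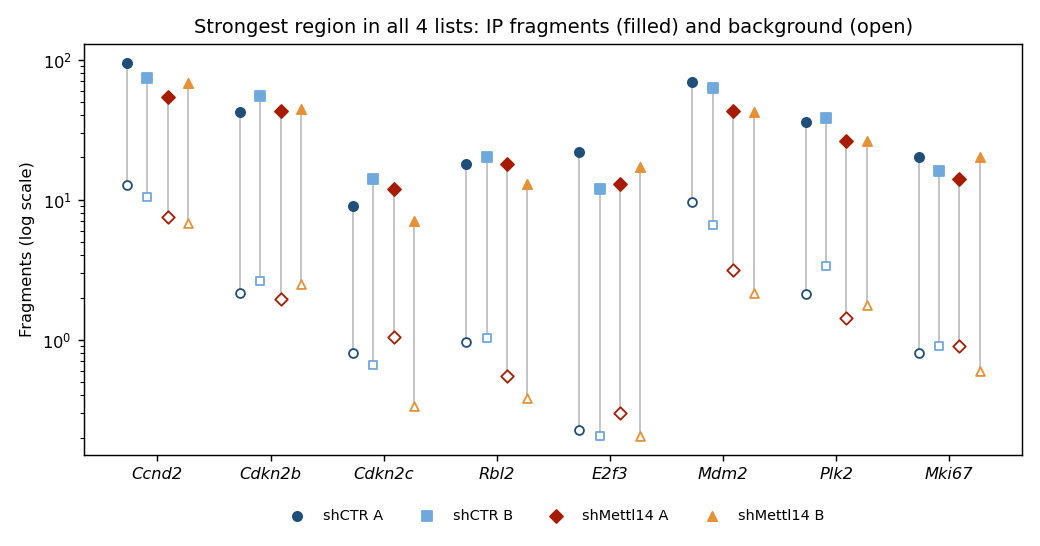
IP fragments at the strongest summit of the strongest region (filled symbols) and the local background there (open symbols), on a logarithmic axis, for the 8 genes called in all 4 lists. Ccnd2 in every list and Mdm2 in the shCTR lists combine many fragments with a high background, and E2f3 has few fragments over a background under 1. The Mdm2 background is 9.54 and 6.56 in the shCTR lists and 3.16 and 2.17 in the shMettl14 lists, where the summits lie at another place. At the Mdm2 site in all 4 lists it was 9.54, 6.56, 6.31 and 4.13.

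The share of all exonic summits that lay in the cell cycle genes was 0.314% ± 0.0505 (SD, n = 2) in the shCTR lists and 0.304% ± 0.0309 (SD, n = 2) in the shMettl14 lists (exact permutation test, two-sided, p = 1). With 2 lists a group this test cannot give a p under 0.333. Without Mki67 the shares were 0.163% and 0.180% (exact permutation p = 0.667). Summits within 200 nt of a stop codon made up 22.2% of the cell cycle summits in both shCTR lists and 23.7% ± 0.824 (SD, n = 2) in the shMettl14 lists (exact permutation p = 0.333), beside 26.7% and 26.2% over all genes. Mki67 set this share as well: without it, 42.9% of the shCTR summits and 41.3% ± 6.92 (SD, n = 2) of the shMettl14 summits lay in that window (exact permutation p = 1). Of the 13 genes with a summit, 7 had one within 200 nt of the stop codon and 9 had one in the last exon. By summit, the last exon held 13 of 27, 12 of 27, 20 of 33 and 12 of 26, beside 63.7% to 64.7% over all genes. Without Mki67 it held 13 of 14, 12 of 14, 20 of 22 and 12 of 13.

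DRACH lay within 50 nt of the summit, on the strand of the transcript, in 100% of the cell cycle summits of both shCTR lists and 98.5% ± 2.14 (SD, n = 2) of those of the shMettl14 lists, beside 96.1% and 95.5% over all genes. These shares leave out the 2 Rb1 summits, which lie outside the chosen transcript. Among the summits placed, the single one without DRACH was the Mdm2 summit 265 nt upstream of the stop codon in shMettl14 A. GGAC was within 50 nt in 46.3% ± 13.1 and 50.1% ± 10.8 (SD, n = 2) of the cell cycle summits in the shCTR and shMettl14 lists, and in 49.2% to 55.5% of all summits of a list. A window of this width holds DRACH at nearly every summit, so these shares do not set the cell cycle genes apart.

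The authors' own overlap of both replicates held 16 of the 19 cell cycle regions for shCTR and 13 for shMettl14, or 84.2% and 68.4%, beside 57.6% and 56.4% of all 9070 exonic regions. The region shared by Rb1 and Lpar6 is counted in both. With it under Rb1, these covered 11 genes for shCTR and 9 for shMettl14, and the 2 genes missing from the shMettl14 overlap were E2f1 and E2f6.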

How the data were processed

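The cell cycle genes and the gene lists were chosen with earlier results of these data known. The authors' alignment was to mm10 with STAR, reads that mapped to 1 place were retained with SAMtools, and MACS2 compared every IP sample with the matching input. The versions and options are not given in the sources used here. The deposited lists give for each summit a fold enrichment (a ratio of IP over local background) and its −log10 p-value and −log10 q-value, which are the authors' own values within a list. Replicates were not pooled. The authors also deposited 1 interval file per shRNA with the overlap of both replicates, used here for presence only. Input samples had no list of their own, and totals of sequenced reads were not analysed here.

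IP fragments and background at each summit were solved from the deposited fold enrichment, taken as the ratio after 1 is added to both, and from −log10 p, taken as the Poisson chance of a higher count. A whole number of fragments matched both values for 100% of summits (−log10 p off by at most 0.000151, with 0.001 accepted). Summits were placed on exons of the GENCODE M21 annotation and, for distances, on the longest complete coding transcript of each gene. Sequences were read from the mm10 assembly and checked against the transcript. Regions were intervals of the 4 lists merged at 1 bp of overlap. Groups and the letters A and B came from the sample titles. The lettered samples were treated as replicates, and the titles do not name separate cultures, so p-values measure the spread between these samples, which may be technical. Ranks were fitted with limma 3.58.1 in R 4.3.3 and shares with exact permutation tests. Fragment recovery and the rank test were tested on simulated data. No interval is given for fragment numbers. Every gene with a summit in all 4 lists was described by its strongest region, and regions in 1 group only and genes without a summit were named. From the wider list the smallest p in each direction was named.

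Alternatives were a replicate block, ranking by −log10 p, by log2 fold enrichment or by fragments, a −log10 q of at least 5, equal numbers of summits, 1 summit per interval, other windows and overlaps, and leaving out each list. Sites joined within 100 bp, intervals touching an exon and shares without Mki67 were added after the data were seen.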

Additional observations from a re-analysis of the deposited data

How the results depend on the processing

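No cell cycle gene or region passed the adjusted threshold under any alternative run, with or without a replicate block, where the threshold passed no gene at all and no region except 3 of 5101 without shMettl14 A, so this sets the cell cycle genes apart from no others. Letters A and B are not shown to pair the samples (r = 0.0795 between the groups' A minus B differences over 4929 regions), and the share of exonic summits in cell cycle genes, shMettl14 minus shCTR, was -0.0102 percentage points, which the replicate block cannot change with 2 lists a group. The differences within letters A and B were 0.00370 and -0.0240. That share turned to 0.0328 with 1 summit per interval and 0.0170 without Mki67, and ranged from -0.0459 to 0.0255 when 1 list was left out. The stop codon share, 1.44 points higher in the main comparison, was -5.18 with 1 summit per interval and -1.60 without Mki67. It was 3.92 with equal numbers of summits and 5.19 within 400 nt of the stop codon. The DRACH share moved from -1.52 to -6.20 within 25 nt. Regions in both shCTR lists only numbered 3 (E2f1, E2f3, E2f6) with equal numbers of summits, 1 (E2f1, with E2f6 lost) with −log10 q of at least 5, and 1 to 3 when 1 list was left out. The 3 without shMettl14 A stood beside 7.93% of all exonic regions, against 1.62% with all lists. Regions in both shMettl14 lists only numbered 1 as sites (Mdm2) and 0 to 1 when 1 list was left out, with 1 without shCTR B (Mki67) or without shMettl14 B (E2f8), beside 3.39% and 11.8% of all exonic regions against 1.60% with all lists.

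The Mdm2 change of 1.15 turned to -0.0691 when fragments were ranked in place of fold enrichment, as did Rbl2 to -0.0476. It was 0.179 with −log10 p ranked, and the difference of log2 fold enrichment, another scale, was 0.717. The change of Cdkn2b, near 0, was -0.0215 with −log10 p ranked, -0.0267 as a difference of log2 fold enrichment, -0.00427 with −log10 q of at least 5 and -0.0628 with fragments ranked. When 1 list was left out, the change ranged from 0.753 (without shCTR A) to 1.51 for Mdm2, 0.110 to 0.488 for Rbl2, -0.19 to 0.19 for Cdkn2b, -0.0588 to 0.756 for Ccnd2, -0.90 to 0.50 for Cdkn2c, -0.82 to 0.35 for E2f3, -0.23 to 0.65 for Mki67 and -0.17 to 0.34 for Plk2. The cause of these turns was not tested. Low fragment numbers limit the precision of any single summit, and 2 lists a group limit every test.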
